A study of Mus musculus with 4 samples.

Results

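The Hox genes encode homeodomain transcription factors and lie in 4 clusters in the mouse genome, named Hoxa, Hoxb, Hoxc and Hoxd. The 38 Hox genes described here were taken by symbol from a fixed list, 10 in Hoxa, 10 in Hoxb, 9 in Hoxc and 9 in Hoxd, of 21631 genes that code for proteins (chromosomes 1 to 19 and X). The regions called over them were read from a study of Six3, a homeodomain factor of the eye and anterior forebrain, by CUT&RUN. In that assay an antibody tethers a nuclease to chromatin, so that DNA near the bound protein is cut out and sequenced.

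The cells were primary mouse neural stem cells of WT genotype, in which Six3 was overexpressed per the series' design text, sampled 3 h after they were moved to neurobasal medium with B-27 for neural differentiation. The Six3_FLAG group held 3 libraries whose titles name Six3 and FLAG, a peptide tag, and the IgG group held 1 library, made with non-specific antibody from cells of the same description. The sources used here do not give the promoter that drove Six3, or say whether the libraries came from separate cultures. A table of called regions holds no expression values, so the labelled cell type could not be checked against markers and the level of Hox RNA in these cells is unknown.

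Genes of a Hox cluster are switched on in the order in which they lie on the chromosome, and those at the anterior end of the series act in the hindbrain while those at the posterior end act in the caudal spinal cord, limbs and genital tract. Members with the same number in different clusters are paralogs, copies of an ancestral gene. In forebrain cells the clusters are a textbook example of genes held silent by Polycomb complexes, and Six3 itself is expressed in the anterior head, outside the Hox domains.

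The authors' table held 1578514 regions for the whole series, each with a highest signal, called its height here, and a signal summed over its bases. Almost every height was a whole multiple of 1.9 or of 0.48, which split the table into a 1.9-step set, with 945651 regions, and a 0.48-step set, with 632860. The sources used here do not give the libraries behind each set. The scales of the sets need not match, so heights are compared only within a set. No column belonged to a single library. FLAG was therefore not compared with IgG, no replicate error could be given, the depth was unknown, and every value below describes one combined table. All heights and summed signals are the authors' own values.

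The clusters carried called regions throughout, at a density close to that of the DNA around them. Over the 4 clusters, from the first to the last listed member, 184 regions of the 1.9-step set had their midpoint, as did 115 of the 0.48-step set, and the 100 kb on both sides of each cluster held 348 and 222. Per Mb, the clusters held 379 regions of the 1.9-step set against 435 in the flanks and 359 over chromosomes 1 to 19 and X. For the 0.48-step set the densities were 237 in the clusters, 278 in the flanks and 240 over those chromosomes. The clusters thus lay below their flanks and near the level of the whole genome in both sets. The density ratio of clusters to flanks was 0.872 for the 1.9-step set, with an exact 95% Clopper-Pearson interval of 0.725 to 1.05, and 0.854 for the 0.48-step set, with an interval of 0.676 to 1.07. Both intervals included 1. They cover counting error only, treat regions as independent and say nothing of the spread between cultures.

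**Figure D1:**
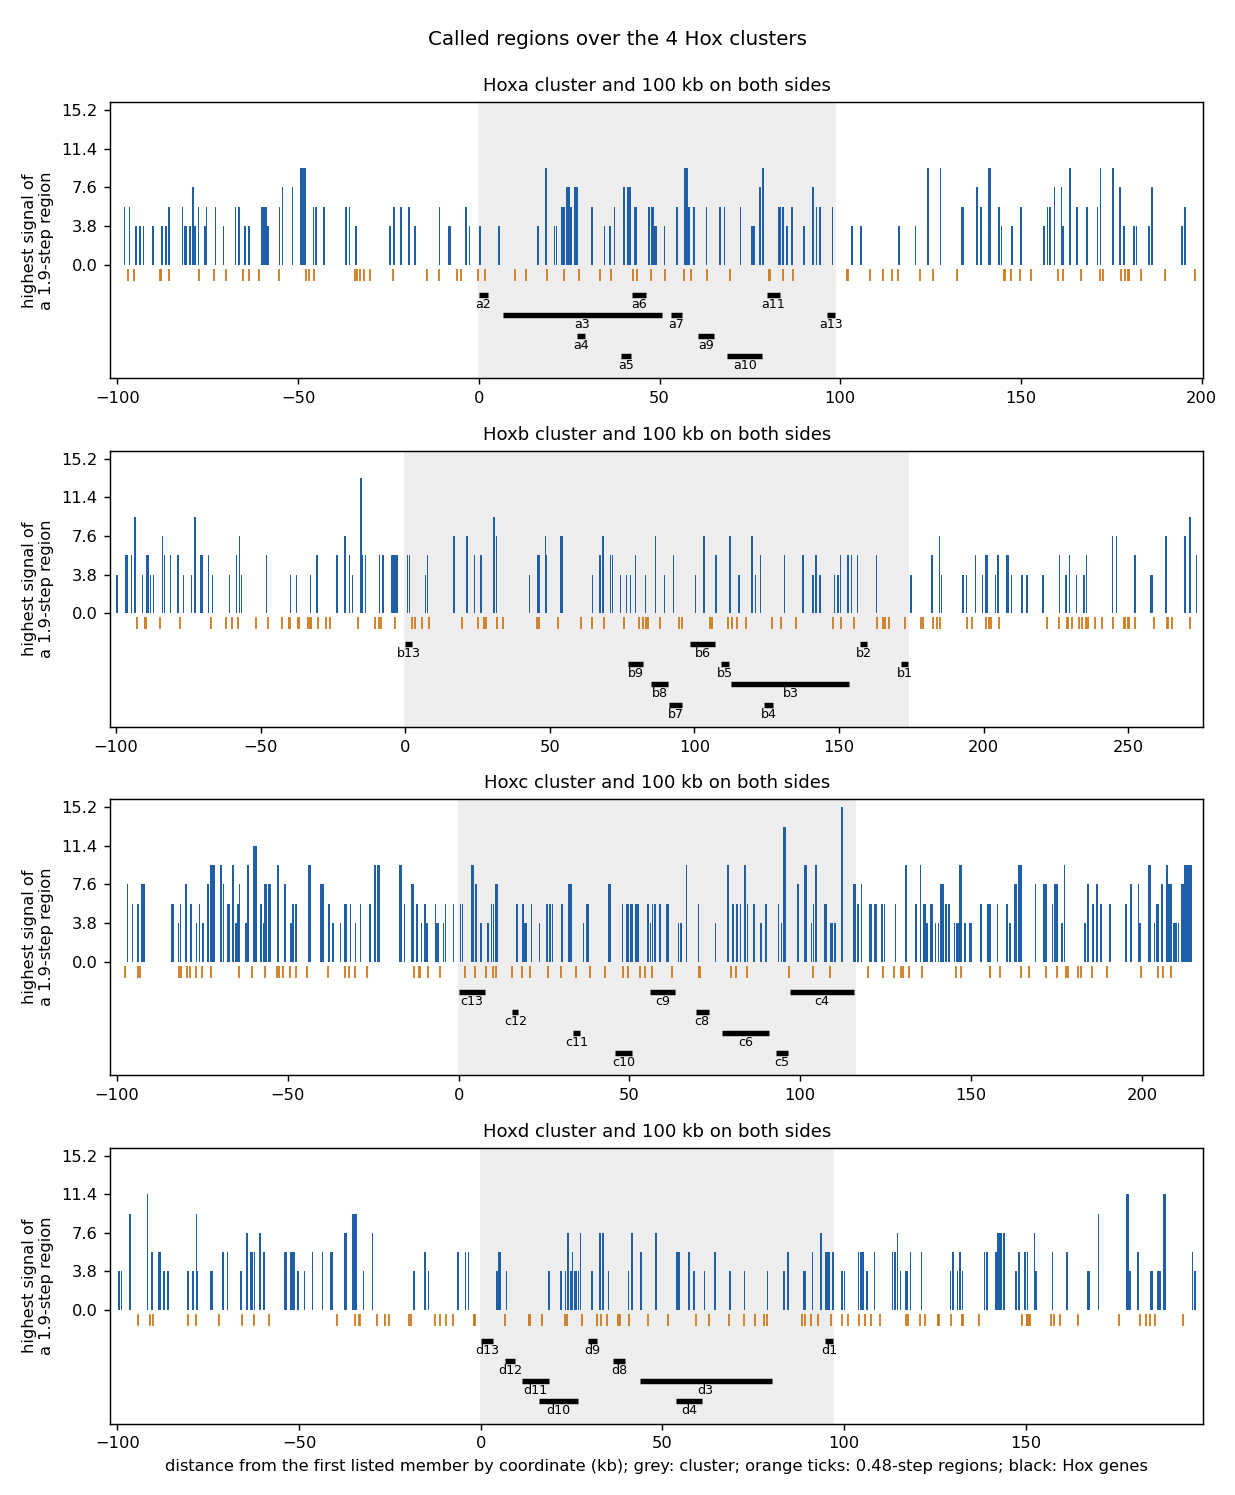
Called regions over each Hox cluster and 100 kb on both sides. The x axis is the distance in kb from the first listed member by coordinate, blue bars give the highest signal of each 1.9-step region, orange ticks mark 0.48-step regions, black bars are the listed Hox genes and the grey band is the cluster. Regions lie along the whole of every panel, and the tallest inside a cluster reaches 15.2 in Hoxc.

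Hoxa lies at chr6:52162417-52260880 (mm10), 98.5 kb from Hoxa2 to Hoxa13. It was the only cluster whose 1.9-step density was above that of its flanks, 437 against 400 regions per Mb, a ratio of 1.09 (95% interval 0.736 to 1.60). Its 0.48-step regions went the other way, at 203 against 260 per Mb and a ratio of 0.781 (0.442 to 1.33). Neither difference exceeded the counting error.

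Hoxb lies at chr11:96194316-96368254, 174 kb from Hoxb13 to Hoxb1, and was the sparsest cluster in the 1.9-step set. Its density was 282 regions per Mb against 345 in the flanks, a ratio of 0.817 (0.554 to 1.19), and its regions covered 13.7% of the cluster against 18.0% of the flanks. The 0.48-step set gave 236 against 300 regions per Mb, a ratio of 0.786 (0.515 to 1.19). Hoxb is long because 74.7 kb separate Hoxb13 from Hoxb9. That interval held 20 regions of the 1.9-step set, 268 per Mb, and the stretch from Hoxb9 to Hoxb1 held 27, 279 per Mb, so the gene-poor and gene-rich stretches of Hoxb were about equally dense.

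Hoxc lies at chr15:102921131-103036856, 116 kb from Hoxc13 to Hoxc4, within a block of chromosome 15 where 1.9-step signal was raised. The 500 kb bin that holds Hoxc had 1.61 times the median number of 1.9-step regions and 1.13 times the median number of 0.48-step regions. The bins of Hoxa, Hoxb and Hoxd had 1.06, 0.812 and 0.979 times the median number of 1.9-step regions. Its 501 regions per Mb of the 1.9-step set were the highest of the 4 clusters, but its flanks held 590, a ratio of 0.849 (0.609 to 1.17). The regions covered 28.6% of Hoxc and 35.3% of its flanks. Hoxc was thus dense in absolute terms and not dense for its surroundings. In the 0.48-step set the ratio was 0.848 (0.515 to 1.37), from 233 against 275 regions per Mb. Without Hoxc, the ratio over the other clusters was 0.890 (0.710 to 1.11) in the 1.9-step set and 0.856 (0.654 to 1.11) in the 0.48-step set.

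Hoxd lies at chr2:74668225-74765142, 96.9 kb from Hoxd13 to Hoxd1. It held 351 regions per Mb of the 1.9-step set against 405 in the flanks, a ratio of 0.866 (0.563 to 1.31), and 279 against 275 of the 0.48-step set, a ratio of 1.01 (0.614 to 1.63). The share of low regions was the highest of the 4 clusters. Of its 34 regions in the 1.9-step set 52.9% stood at the lowest height found in that set, 3.8. The share was 35.8% in its flanks, 36.5% over chromosomes 1 to 19 and X, and from 24.1% to 30.6% in the other clusters. Heights of 7.6 and above were reached by 20.6% of the regions in Hoxd and 18.5% in its flanks. No interval was computed for these shares, and their differences were not tested.

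**Figure D2:**
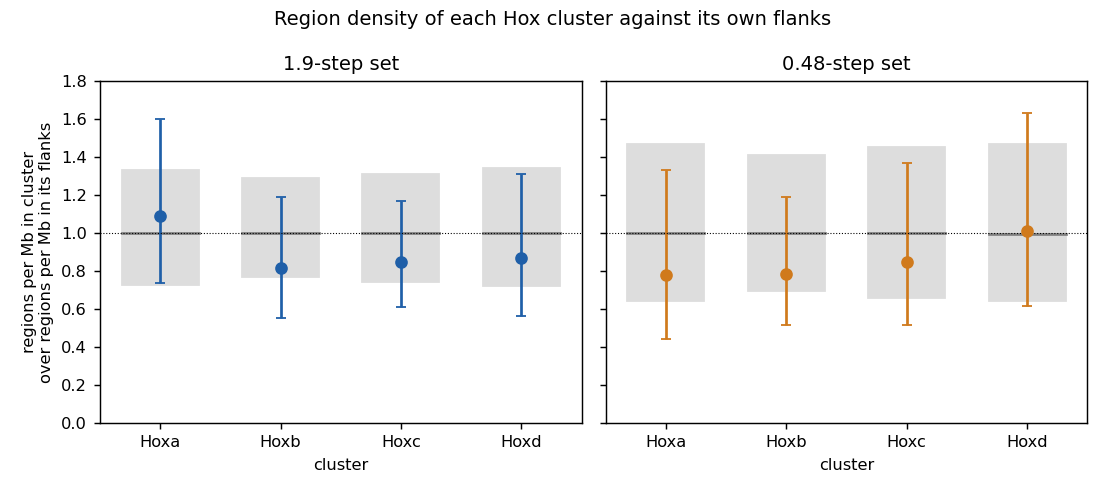
Density of called regions in each Hox cluster over the density in its own 100 kb flanks, for both step sets. Points are ratios on a linear axis, error bars are exact 95% Clopper-Pearson intervals of counting error, and each of the 8 intervals crosses 1. Grey boxes give the central 90% of the same ratio in windows of equal length along chromosomes 1 to 19 and X, with the median as a line.

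The same ratio was taken in all non-overlapping windows of the same length, as a description of how far such ratios range. Hoxa stood at percentile 70.0 of 25684 windows in the 1.9-step set, Hoxb at 9.78, Hoxc at 16.5 and Hoxd at 21.2. In the 0.48-step set the percentiles were 16.7, 13.2, 25.2 and 53.1 in the same order. No cluster lay outside the central 90% of the windows in either set. In plain density, Hoxc stood at percentile 94.4 in the 1.9-step set and Hoxb at 12.1.

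No region of the 0.48-step set in the clusters rose above 1.44. Heights of 4 or more steps (1.92 and above) were found in 0 of 115 such regions in the clusters. This allows a share of up to 2.61%, taking 3 counts as the limit of a count of 0. The exact 95% interval, of the kind used for the flanks, reached 3.16%. The flanks had 8 of 222, or 3.60% (exact 95% interval 1.57 to 6.98), spread as 2 around Hoxa, 4 around Hoxb, 0 around Hoxc and 2 around Hoxd. Over chromosomes 1 to 19 and X the share was 4.34%. Both limits in the clusters lay within the interval of the flanks and below the share over those chromosomes. In the 1.9-step set, 21.7% of the regions in the clusters had 4 or more steps (7.6 and above), 24.4% in the flanks and 22.7% over those chromosomes.

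At the level of single genes, 37 of the 38 Hox genes had a region of either set within 1 kb of an end, where 94.2% of all protein-coding genes had one. The 1.9-step set was present at the ends of 36 Hox genes, against 88.1% of all genes, and the 0.48-step set at 26, against 65.7%. Regions of both sets were present at the ends of 25, against 59.5% of all genes. A 1.9-step region of 4 or more steps was present at 15, or 39.5% (exact 95% interval 24.0 to 56.6), against 38.9% of all genes. Regions of the 2 sets that overlap each other lay at the ends of 8 Hox genes, 21.1% (9.55 to 37.3), against 26.7% of all genes. Each Hox share lay near its background or had an interval that included it. Ends of neighbouring Hox genes are close together, so the 67 regions of the 1.9-step set at Hox ends include 4 that served more than 1 gene, as do 2 of the 33 of the 0.48-step set. Both ends were used because the gene table gives no strand. They are the ends of the annotated span, and a promoter inside the span, as at Hoxb8 and Hoxc4, did not count as an end.

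**Figure D3:**
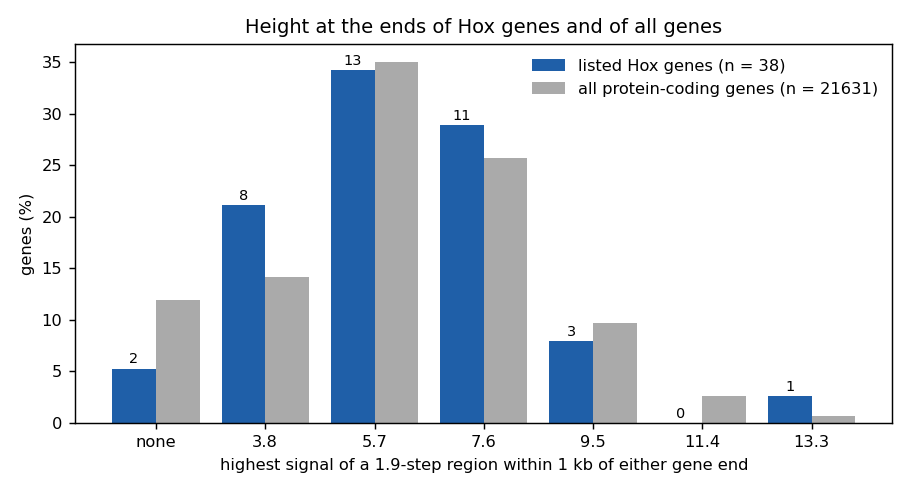
Highest 1.9-step region within 1 kb of either end, for the 38 Hox genes (blue, number above each bar) and all 21631 protein-coding genes (grey). The y axis is the percent of genes and the x axis the height; 13 Hox genes and 35.0% of all genes stood at 5.7, and heights above 13.3, where no Hox gene stood, are not drawn.

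The median height at the ends was 5.7 for the Hox genes and 5.7 for all genes. Of the Hox genes, 2 had no 1.9-step region at their ends, 8 stood at 3.8, 13 at 5.7, 11 at 7.6, 3 at 9.5 and 1 at 13.3. In the 0.48-step set 5 stood at 1.44, 21 at 0.96 and 12 had none. By cluster, 4 or more steps in the 1.9-step set were reached by 6 of 10 genes in Hoxa, 2 of 10 in Hoxb, 4 of 9 in Hoxc and 3 of 9 in Hoxd. By position along the body axis they were reached by 4 of 11 anterior genes (paralogs 1 to 4), 5 of 11 central genes (5 to 8) and 6 of 16 posterior genes (9 to 13). The exact intervals, from 26.2% to 87.8% for Hoxa and from 2.52% to 55.6% for Hoxb, overlapped across the clusters, and those of the 3 axial classes overlapped as well.

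**Figure D4:**
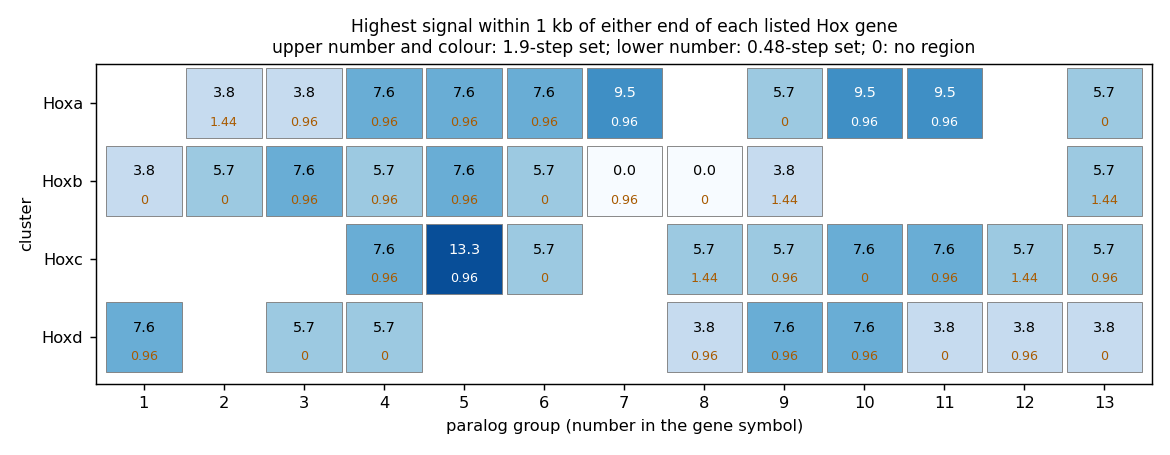
Highest 1.9-step region within 1 kb of an end for every listed Hox gene, by cluster (rows) and paralog number (columns). The upper number and the shade give the 1.9-step height, the lower number the 0.48-step height, 0 marks no region and an empty place a paralog number with no listed gene. Hoxc5 stands highest at 13.3, and Hoxb7 and Hoxb8 have none.

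Of the 3 tallest regions of Hoxa, 2 lay between genes. The widest of them, 9.5 high and 979 bp, was at chr6:52219186-52220164, 0.613 kb from the end of Hoxa7, a gene of the trunk axial skeleton. Another, chr6:52240905-52241379, lay between Hoxa10 and Hoxa11, which pattern the uterus and limb, and counted for both. The last, chr6:52180652-52181176, lay inside Hoxa3, a gene needed for the thymus and parathyroid, whose annotated span overlaps those of Hoxa4, Hoxa5 and Hoxa6. At its own ends Hoxa3 had regions of 3.8 only. The ends of Hoxa4, Hoxa5 and Hoxa6 stood at 7.6, and Hoxa5 and Hoxa6 shared the region chr6:52203451-52204396. Hoxa9 and Hoxa13 stood at 5.7 with no 0.48-step region at an end. Hoxa2, the most anterior gene listed here, which patterns the hindbrain and branchial arches, stood at 3.8 and had a 0.48-step region of 1.44. The 1.9-step and 0.48-step regions overlapped each other at Hoxa3 (chr6:52213520-52213802 with chr6:52213711-52213966) and Hoxa11 (chr6:52246339-52246745 with chr6:52246535-52246695).

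In Hoxb most of the tall regions lay between Hoxb13 and Hoxb9. The tallest, 9.5 at chr11:96224809-96225271, was 28.2 kb from Hoxb13, and 7 of the 11 regions of 4 or more steps in the cluster fell there. That part is 74.7 of the 174 kb of Hoxb and held 20 of its 49 regions of the 1.9-step set. No counting interval was computed for the share of tall regions. The widest region, 1119 bp at chr11:96247919-96249037, lay in the same part, over the annotated gene Gm11539 and 22.3 kb from Hoxb9. Hoxb13 itself, the caudal-most gene of the cluster, stood at 5.7 and 1.44. Among the gene-rich stretch, Hoxb6 held a region of 7.6 in its body at chr11:96297283-96298124, and 5.7 at its ends. Hoxb5, expressed in the enteric nervous system, and Hoxb3, a hindbrain gene, shared the region chr11:96306215-96306845 of 7.6.

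Hoxb8 was the only listed Hox gene with no region of either set at the ends of its span. Inside Hoxb8, 2 regions of the 1.9-step set were called, 7.6 at chr11:96280707-96280989 and 3.8 at chr11:96283809-96284250, so the gene was not empty. The RefSeq promoter of Hoxb8, chr11:96281655-96281904, also lies inside the span. No region overlapped this promoter, but the region of 7.6 lay within 1 kb of it, so Hoxb8 was not free of regions near its start. Its neighbour Hoxb7 had a 0.48-step region of 0.96 at chr11:96289881-96290028 and no 1.9-step region at its ends. At Hoxb9 both sets overlapped, at chr11:96277161-96277725 (3.8) and chr11:96277522-96277845 (1.44). Hoxb4, a gene of haematopoietic stem cells and the hindbrain, stood at 5.7, and so did Hoxb2. Hoxb1, which sets the identity of a single hindbrain segment, stood at 3.8.

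The tallest regions of any Hox cluster were in Hoxc, the cluster in the raised block. A region of 15.2, 460 bp wide, lay inside Hoxc4 at chr15:103033076-103033535, 3.32 kb from its end, and a region of 13.3 lay inside Hoxc5 at chr15:103016087-103016915. The RefSeq promoter of Hoxc4, chr15:103034145-103034394, lies inside the gene's span and within 1 kb of the region of 15.2. The tallest region in the Hoxc flanks was 11.4. The share of tall regions was nonetheless lower in Hoxc than beside it. Heights of 4 or more steps were reached by 13 of 58 regions in Hoxc, 22.4%, and by 43 of 118 in its flanks, 36.4%. Over chromosomes 1 to 19 and X the share was 22.7%. No interval was computed for the shares of Hoxc and its flanks, and their difference was not tested. Hoxc6, a gene of brachial motor neurons, and Hoxc13, a gene of hair and nails, each held regions of 9.5 in their bodies, at chr15:103004781-103005335 and chr15:102924846-102925522, with 5.7 at their ends. The widest region of the cluster, 1210 bp at chr15:102953070-102954279, lay 0.247 kb from Hoxc11 and put it at 7.6. Hoxc10, a gene of lumbar motor neurons, also stood at 7.6 and had no 0.48-step region at an end. The part of the raised block in these heights was not tested.

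A further 3 Hoxc genes had regions of both sets on top of each other at an end. At Hoxc8, a gene of brachial motor neurons, chr15:102991119-102991525 (5.7) met chr15:102991443-102991604 (1.44). At Hoxc9, which sets thoracic motor neuron identity, the 0.48-step region chr15:102977432-102977757 (0.96) overlapped a 1.9-step region on both of its sides, chr15:102976993-102977471 (3.8) and chr15:102977680-102978048 (5.7). At Hoxc12 chr15:102939607-102940174 (5.7) met chr15:102939532-102939755 (1.44). Hoxc thus supplied 3 of the 8 Hox genes with such an overlap.

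Heights in Hoxd reached 7.6 and no more, in 7 regions. The one with the most summed signal lay at chr2:74761512-74762198, 0.782 kb from Hoxd1, the anterior end of the cluster. Hoxd1 also had the widest region of Hoxd, 1173 bp at chr2:74763031-74764203, and 59.8% of the gene lay under 1.9-step regions. Hoxd9 and Hoxd10, genes of lumbar motor neurons and the limb, stood at 7.6 through chr2:74700691-74701234 and chr2:74695486-74695876, and Hoxd10 held a further 7.6 region in its body at chr2:74692023-74692411. Hoxd3 held its own at chr2:74716253-74716827, with 5.7 at its ends, as had Hoxd4. The posterior genes Hoxd11, Hoxd12 and Hoxd13, which pattern the digits and external genitalia, stood at 3.8, and so did Hoxd8. Both sets overlapped at Hoxd8 (chr2:74708664-74709049 with chr2:74708880-74709123) and at Hoxd9 (chr2:74700691-74701234 with chr2:74701092-74701341).

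A few Hox genes had bodies free of called regions. No 1.9-step region lay over Hoxb1, Hoxb2, Hoxb4, Hoxb5, Hoxc11, Hoxd8 or Hoxd13, and no region of either set over Hoxb2 and Hoxd13. These are 20.6% of the 34 Hox genes of up to 14 kb (exact 95% interval 8.70 to 37.9), against 10.4% of 7281 protein-coding genes between the same shortest and longest lengths, and the interval includes that share. The Hox genes were the shorter, with a median of 3.40 kb against 6.51 kb, and the part of length in these shares was not tested. Genes free of both sets were 5.88% and 6.02%. The median share of a gene under 1.9-step regions was 16.6% for the Hox genes and 19.8% for the others. These values were read after the data were seen and carry no test.

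Within the clusters the gene ends were not favoured. The 1.9-step set covered 19.4% of the bases within 1 kb of Hox ends and 20.5% of the rest of the clusters, a ratio of 0.947. Over all genes, the ends against the rest of the chromosomes gave 1.14. That rest was 2553238 kb of whole chromosomes, against 348 kb inside the clusters. In both sets the ratio for all genes is therefore not like for like with that of the clusters. The ratio was 0.901 in Hoxa, 1.03 in Hoxb, 0.732 in Hoxc and 1.08 in Hoxd. For the 0.48-step set it was 0.708 over the clusters, from 4.07% and 5.74%, against 1.05 for all genes, and it ranged from 0.497 in Hoxd to 1.40 in Hoxa.

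The sets overlapped each other in the clusters about as often as beside them. Of the 115 regions of the 0.48-step set in the clusters, 37 overlapped a 1.9-step region, 32.2% (exact 95% interval 23.8 to 41.5), against 35.6% in the flanks (29.3 to 42.3) and 27.7% over chromosomes 1 to 19 and X. Hoxc had 15 of 27 and Hoxb had 6 of 41, 55.6% (35.3 to 74.5) and 14.6% (5.57 to 29.2). The flanks of Hoxc had 56.4%, where more of the DNA lies under 1.9-step regions.

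For 22 of the 38 Hox genes the RefSeq promoter table (GRCm38.p6, the coordinates of mm10) held 24 promoters of 300 bases, 250 before the start and 50 after it. A 1.9-step region overlapped 7 of the 24, against 33.8% of all promoters, and regions of both sets overlapped 2, Hoxd12 and Hoxd10, against 4.22%. The median GC content was 57.7% for Hox promoters and 53.0% for all 32619. Shown here are the 250 bases before the start at those 2 and at the most fully covered promoters of the tall Hoxa stretch, Hoxa10 and Hoxa11, written 5′ to 3′ on the strand of the gene, with capitals for bases under a called region. They lie at chr2:74674763-74675012 (+), chr2:74691641-74691890 (+), chr6:52240855-52241104 (-) and chr6:52245811-52246060 (-).
Hoxd12: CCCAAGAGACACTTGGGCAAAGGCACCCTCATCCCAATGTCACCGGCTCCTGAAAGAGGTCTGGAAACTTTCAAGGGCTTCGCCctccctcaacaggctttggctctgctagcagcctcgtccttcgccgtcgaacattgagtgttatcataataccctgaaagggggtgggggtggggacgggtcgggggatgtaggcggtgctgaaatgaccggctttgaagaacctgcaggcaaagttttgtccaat
Hoxd10: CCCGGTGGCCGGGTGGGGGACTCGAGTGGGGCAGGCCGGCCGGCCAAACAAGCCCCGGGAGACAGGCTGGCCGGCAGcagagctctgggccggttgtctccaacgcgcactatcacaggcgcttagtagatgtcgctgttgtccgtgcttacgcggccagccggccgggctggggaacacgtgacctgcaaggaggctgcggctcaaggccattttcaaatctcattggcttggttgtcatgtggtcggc
Hoxa10: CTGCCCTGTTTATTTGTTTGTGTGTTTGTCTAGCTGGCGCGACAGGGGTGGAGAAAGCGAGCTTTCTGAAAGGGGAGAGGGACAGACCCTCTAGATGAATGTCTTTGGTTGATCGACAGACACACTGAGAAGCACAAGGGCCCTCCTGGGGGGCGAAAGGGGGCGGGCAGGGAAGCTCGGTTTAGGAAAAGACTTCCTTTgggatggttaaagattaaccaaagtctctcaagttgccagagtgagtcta
Hoxa11: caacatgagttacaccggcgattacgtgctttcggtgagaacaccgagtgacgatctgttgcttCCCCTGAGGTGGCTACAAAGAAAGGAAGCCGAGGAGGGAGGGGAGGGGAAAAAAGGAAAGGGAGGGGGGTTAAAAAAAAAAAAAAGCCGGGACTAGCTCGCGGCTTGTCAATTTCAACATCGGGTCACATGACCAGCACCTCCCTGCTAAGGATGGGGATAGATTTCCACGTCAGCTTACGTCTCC
At Hoxd12 the 84 capitals lie under the 0.48-step region chr2:74674692-74674846, and the 1.9-step region of 3.8 begins past the printed bases, at chr2:74675034-74675477. At Hoxd10 the 77 capitals lie under a 1.9-step region of 3.8, chr2:74691300-74691717, and the 0.48-step region follows past the start at chr2:74691902-74691990. No printed base of either promoter lay under both sets, but before the printed bases of Hoxd10 a further 0.48-step region, chr2:74691414-74691470, lay inside the 1.9-step region. At Hoxa10 the 200 capitals belong to the region of 9.5 between Hoxa10 and Hoxa11, and at Hoxa11 the 186 capitals belong to chr6:52245741-52245996, of height 5.7.

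The letters TAAT, the core that many homeodomains bind, were searched on both strands (as TAAT or ATTA, overlaps counted), with TGATAC, a sequence known to be bound by relatives of Six3, searched on both strands as well. TAAT was in 19 of the 24 Hox promoters, 79.2%, against 58.0% of all promoters of that length. TGATAC was in 0 of 24 against 5.42%. None of the bases in capitals of the 4 printed promoters held TAAT. The other Hoxa10 promoter, chr6:52234940-52235189, was not printed and held 1 TAAT under a called region of height 5.7. These are matches of letters in a short window and do not mark a bound site.

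The Hox clusters also hold 6 miRNA genes, which act on Hox transcripts among others. Their mature sequences are shown because the seed, bases 2 to 8 in capitals, groups them across clusters. They were taken from RefSeq after their values were seen.
miR-196a-5p: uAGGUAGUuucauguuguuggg
miR-196b-5p: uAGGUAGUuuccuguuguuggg
miR-10a-5p: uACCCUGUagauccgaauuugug
miR-10b-5p: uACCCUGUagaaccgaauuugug
miR-615-3p: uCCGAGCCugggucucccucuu
The miR-196 genes share one seed and the miR-10 genes another. Mir196a-1, near Hoxb9, Mir196a-2, near Hoxc10, and Mir10a, near Hoxb4, lay wholly under 1.9-step regions of 5.7, and Mir196b, near Hoxa10, lay 22.4% under one of 5.7. Mir10b, within Hoxd4, and Mir615, within Hoxc5, had none. The 4 of 6 hairpins under a 1.9-step region, 66.7% (exact 95% interval 22.3 to 95.7), compare with 23.4% of 1005 hairpins, and the interval includes that share. No hairpin lay under a 0.48-step region. Of the 23 long noncoding RNA genes in the clusters, 17 had a 1.9-step region over them, against 90.4% of all 12697 such genes, and 14 a 0.48-step region, against 78.9%. Neither set was called over 5 of the 23, while 94.2% of all such genes had a region of either set. Each share with a region was thus lower in the clusters than over all such genes. No interval was computed for these shares. Those in the clusters were shorter, with a median of 4.53 kb against 8.40 kb, and the part of length was not tested. Hotair, the long noncoding RNA of Hoxc, had 3 regions of the 1.9-step set, up to 5.7 high, over 38.0% of its length, and 1 of the 0.48-step set.

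The neighbours of the clusters stood at like heights. Evx1 and Evx2, homeobox genes beside Hoxa and Hoxd, stood at 5.7, as did Calcoco2, Ttll6, Lnpk and Mtx2, and Skap1, beside Hoxb, stood at 9.5. Among the Hox cofactors, which bind DNA with Hox proteins, 8 of 9 had a 1.9-step region at an end, against 88.1% of all genes. Of these cofactors 5 of 9 reached 4 or more steps (exact interval 21.2% to 86.3%), against 38.9% of all genes. The latter share lay within the interval of each list given here. Pbx4 was the highest cofactor at 11.4 and Meis3 was without a region. Of a list of Polycomb and Trithorax regulators that also held the insulator protein Ctcf, 18 of 20 had a 1.9-step region. There 12 of 20 reached 4 or more steps (36.1% to 80.9%), with Ctcf and Phc2 highest at 11.4. The ParaHox and Evx genes reached 4 or more steps in 4 of 8 (15.7% to 84.3%), with Pdx1 and Cdx2 highest at 13.3. Of those 4, Gsx1, Pdx1 and Cdx2 share a 500 kb bin with 4.07 times the median summed 1.9-step signal and 0.331 times the median number of 0.48-step regions, whose part in their height was not tested.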

How the data were processed

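CUT&RUN libraries, 3 against FLAG and 1 with IgG, were made per the labels with a protein A/G and micrococcal nuclease fusion, phenol and chloroform extraction and the ThruPLEX kit. SEACR, deepTools and Bowtie2 are named in the submitters' processing notes, with the build mm10. The sources used here give no versions or parameters. The deposited table gives the highest coverage signal and the signal summed over bases for each called region, both in the authors' own scaling. Its name points to spike-in scaling and BEDOPS. The planned comparison of FLAG with IgG needs a column per library and was not run.

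Heights were divided by 1.9 and 0.48 and assigned where exactly one quotient lay within 0.001 of a whole number, which left 3 regions in no set. This split was made after the data were seen. Regions were placed by their midpoint in clusters and flanks, and by any overlap with windows of 1 kb on both sides of gene ends. Comparison windows needed at least 20 regions in their flanks and left out the Hox neighbourhoods. Genes and sequences came from RefSeq GRCm38.p6, which has no strand or exons in its gene table. All listed members are accounted for; those named in full are up to 4 with the highest region in each cluster, those with no region and those where both sets overlap, with the extremes of each cluster, flanking genes and the top 2 of each other list. A further list is not reported here. Members and lists were chosen with earlier results of these data known. Calculations used Python 3.11.15, numpy 2.4.6, pandas 2.3.3 and scipy 1.17.1 and were tested on simulated data. Alternatives changed the flanks, the end window, the height threshold, the overlap rule, the tolerance and merging.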

Additional observations from a re-analysis of the deposited data

How the results depend on the processing

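Of 112 alternative values, 109 stayed within the limits set for them. For a density ratio the limits were its counting interval, and for a covered share that interval rescaled to the share's ratio. These limits are wide, as 0.442 to 1.33 for Hoxa in the 0.48-step set, so staying within them is a weak check. The change of tolerance gave the main values again. None of the alternatives to the 12 density ratios, for each cluster in each set and in both together, had an interval that left out 1. The 1.9-step ratio ranged from 1.08 to 1.46 in Hoxa, from 0.817 to 0.931 in Hoxb, from 0.822 to 0.857 in Hoxc and from 0.635 to 0.900 in Hoxd. The 0.48-step ratio ranged from 0.508 to 0.781 in Hoxa, 0.541 to 0.934 in Hoxb, 0.672 to 0.897 in Hoxc and 0.899 to 1.01 in Hoxd, with the lowest value in the first 3 clusters from regions of 3 or more steps alone. Ratios crossed 1 in Hoxd for the 0.48-step set, from 1.01 to 0.899 (flanks of 50 kb), 0.944 (200 kb) and 0.963 (3 or more steps), and in Hoxa for both sets together, from 0.969 to 1.14 (50 kb) and 1.12 (3 or more steps). The number of Hox genes with a 1.9-step region of 4 or more steps at an end, 15, was 28 with a threshold of 3 steps, 4 with 5 steps and 29 with windows of 5 kb. The background moved with it, to 73.9%, 13.3% and 79.2% of all genes. Among these, 2 alternatives were chosen after seeing the data: Hoxb from Hoxb9 to Hoxb1 and hairpins with 0.5 kb added, under which all 6 miRNA hairpins met a 1.9-step region, against 52.1% of the others. No paired analysis was possible because the table has no column per library and the groups share a single replicate number. For the same reason no library could be left out, and depth and replicate error limit every value here in an unknown way.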
